A study of Homo sapiens with 50 samples.

Results

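The mitotic cyclins, CDK1 and the enzymes that switch CDK1 on and off were followed in H1299shRAD9 and H1299 cells after α-particle irradiation. Members were taken by gene symbol, as all probes other than controls whose gene name was CCNA2, CCNB1, CCNB2, CDK1, CDC20, CDC25A, CDC25B, CDC25C, WEE1 or PKMYT1. All 10 genes were on the array, with 11 probes in 38 spots among 34127 probes. H1299 is an established human non-small cell lung carcinoma line that lacks p53, and H1299shRAD9 cells carried a stable shRNA against RAD9, a checkpoint gene, introduced with a retroviral vector. A pair of stable transfectants was used interchangeably, and which of them gave a given sample was not in the labels. Each line had 5 groups of 5 RNA samples: unirradiated controls (CTL), directly irradiated cells (DBP and DBN) and their bystanders (BP and BN). Directly irradiated cells lay on the thin Mylar of a double dish and received 1 Gy of 4He ions of 125 keV/µm, while bystanders shared the dish on thicker Mylar strips that the particles did not cross. RNA was taken 4 h later. Dishes were chosen for the arrays by micronucleus counts, so that P marks dishes whose bystanders were rich in micronuclei and N marks dishes whose bystanders were not. The 5 samples of a group were described as independent.

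Entry into mitosis is driven by CDK1 bound to cyclin B (CCNB1 or CCNB2) or cyclin A (CCNA2). The kinases WEE1 and PKMYT1 hold CDK1 inactive by phosphorylating it, and the phosphatases CDC25A, CDC25B and CDC25C remove those phosphates. CDC20 activates the anaphase-promoting complex, which marks cyclin B for destruction and ends mitosis. The genes for the cyclins, CDK1, CDC20 and CDC25C are transcribed mainly in G2, through promoter elements called CCAAT boxes and cell cycle homology regions (CHR). After DNA damage, checkpoint kinases restrain CDC25 and delay mitosis. In RNA from whole cultures, less transcript per cell and fewer cells in G2 or mitosis cannot be told apart.

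The promoters of CCNB1, CCNB2, CDC20 and CDC25C are shown because CCNB1 and CDC25C were among the members lower in directly irradiated cells, and CCNB2 and CDC20 because their stretches hold both kinds of element. RefSeq windows (GRCh38.p14, 250 bases before to 50 after a transcription start) were given for 8 of the 10 genes, in 15 windows. The printed stretches end 1 base before the start and run 5′ to 3′ on the strand of the gene. Capitals mark CCAAT or its reverse complement ATTGG, and the CHR letters TTTGAA or their reverse complement TTCAAA.
CCNB1, chr5:69167000-69167149, plus strand: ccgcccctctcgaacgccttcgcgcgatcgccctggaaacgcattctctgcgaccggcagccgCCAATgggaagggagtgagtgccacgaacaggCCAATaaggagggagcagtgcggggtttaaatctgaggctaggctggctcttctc
CCNB2, chr15:59104996-59105145, plus strand: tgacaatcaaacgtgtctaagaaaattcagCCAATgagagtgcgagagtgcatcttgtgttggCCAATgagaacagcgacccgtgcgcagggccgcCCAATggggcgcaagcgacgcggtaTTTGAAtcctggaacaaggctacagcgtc
CDC20, chr1:43358831-43358980, plus strand: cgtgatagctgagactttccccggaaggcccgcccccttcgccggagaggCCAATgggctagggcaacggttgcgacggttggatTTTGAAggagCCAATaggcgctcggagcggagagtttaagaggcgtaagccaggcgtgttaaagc
CDC25C, chr5:138331878-138332097, minus strand: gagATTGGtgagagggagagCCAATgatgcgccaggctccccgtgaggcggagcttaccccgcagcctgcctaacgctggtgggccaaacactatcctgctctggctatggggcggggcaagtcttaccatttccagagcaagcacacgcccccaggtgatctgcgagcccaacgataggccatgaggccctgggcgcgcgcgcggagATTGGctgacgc

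CCAAT or ATTGG was found in at least 1 window of all 8 genes, and in 34.6% of all 35116 promoters of the same length. The CHR letters were found in CCNB2, CDK1, CDC20 and CDC25C, 4 of the 8 genes, and in 15.2% of all promoters. CDK1 had 2 windows and CDC25B and CDC25C had 4 each, while the shares count single promoters. The gene counts and the shares are therefore not in the same unit. CCNB2 carried CCAAT at positions −244, −120, −87 and −54 and TTTGAA at −29, counted from the start site. CCNB1 carried CCAAT at −87 and −55. In the CDC25C window shown, TTTGAA lay at 43, beyond the printed stretch. The same bases lay at −30 in an overlapping CDC25C window with another start site, which also held ATTGG at −85. An E2F-type site was searched as TTTGGCGC and TTTCCCGC on both strands, and the first was found in CDC25A at −44, against 0.652% of all promoters. CDC25B held the CHR variant TTCGAA at −38 of 1 window, against 1.45% of promoters. Within a window no match overlapped another. These matches describe the sequences and were not set against the expression values.

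Levels are log2 processed fluorescence intensities minus the median of the array, so that 1 unit is a 2-fold change. Levels of different probes are not set against each other. All 11 probes were well above background on 50 of 50 arrays and none was saturated. The filters were rebuilt here from the methods of the study and kept more features than the value table deposited by the authors holds: 20100 features passed the criterion on background, and 12206 of these also varied at least 1.3-fold from their median on at least 20% of the arrays. Of the 11 member probes, 6 for 5 genes passed both (CCNA2, the 2 probes of CCNB1, CDC25A, CDC25C and WEE1). The other 5 (CCNB2, CDK1, CDC20, CDC25B and PKMYT1) varied too little, and their differences come from a fit over the 20100 features. A difference was called, and is said to have risen or fallen, at p below 0.006 (0.005 between the unirradiated lines) in limma and at a false discovery rate (Benjamini and Hochberg) below 10%. Comparisons within a line were paired by replicate number.

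Across the 50 arrays, 55.4 to 83.4% of probes were well above background (median 63.5%). The highest share belonged to H1299 DBN replicate 1, and H1299 DBN replicate 2 was marked by the scanner software as having a poor grid and had 201 saturated probes. Member differences and list medians in H1299 DBN are therefore also given without this pair of arrays. The targeted gene, RAD9A on the array, read 3.34 to 3.85 in H1299shRAD9 CTL (mean 3.65 ± 0.19 SD, n = 5) and 3.82 to 4.18 in H1299 CTL (4.01 ± 0.13, n = 5), so the highest knockdown array lay just above the lowest parental array. Its mean was also lower in H1299shRAD9 than in H1299 in DBP (3.793 against 4.133), BP (3.678 against 3.804) and BN (3.687 against 3.799). In DBN the H1299shRAD9 mean was the higher, at 3.803 ± 0.265 against 3.747 ± 0.614 (SD, n = 5 each). The arrays of the lines overlapped in each of these groups. These are RNA levels. By Western blot, the study reports clearly less RAD9 protein in both transfectants than in untransfected cells. Vimentin (VIM) read 10.9 to 12.3 on all arrays, and all probes of the keratins KRT8 and KRT18 were well above background on 50 of 50. Of the probes for the leukocyte gene PTPRC, 2 of 5 were well above background on 50 of 50 arrays, and the other 3 on at most 2. The T cell gene CD3E was so on 38 of 50. PECAM1, of endothelium, was well above background on at most 2 arrays, the probes of the red cell gene HBB on 12 and 1, and ALB, of liver, on 3. The part of these genes in the results was not tested.

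Without irradiation, no member was called between the lines, against 15.5% of all 12206 features (0 of 6 member probes called, 1 of 6 at an unadjusted p under 0.05, limma). No slide held both CTL groups, so line and slide cannot be told apart in these differences. CDC25A, the phosphatase that also acts at the start of S phase, had the smallest adjusted p of the tested members. Its levels were 4.77, 5.00, 5.24, 5.27 and 5.18 in H1299shRAD9 CTL and 4.92, 4.27, 4.62, 4.65 and 4.79 in H1299 CTL. The groups overlapped through replicate 1 of either line, and the difference was 0.44 (SE 0.16, adjusted p = 0.0647). Without replicate 1 it was called. CDC25B, a phosphatase that acts on the first CDK1 complexes of G2, was the member whose lines did not overlap. It read 6.30, 6.42, 6.42, 6.34 and 6.34 in H1299shRAD9 CTL and 6.90, 6.54, 6.58, 6.51 and 6.74 in H1299 CTL. All 5 knockdown arrays lay below all 5 parental arrays in 1 of 11 member probes, and in 6.12% of the 19995 features measured on all 10 arrays. The same shares for other pairs of groups are over 19928 to 20058 features. The difference was −0.29 (SE 0.10, limma adjusted p = 0.0750) and did not pass the threshold of p below 0.005. The two-sided exact permutation p was 0.00794, the smallest that 5 against 5 can give. The lack of overlap alone fixes that value, so it adds nothing to it. PKMYT1, the membrane-bound kinase of CDK1, read 7.57 ± 0.25 and 7.30 ± 0.21 (SD, n = 5 each), a difference of 0.27 with an SE of 0.14. The CCNB1 junction probe differed by 0.01 (SE 0.15; −0.12 with quantile normalization and −0.14 with normexp) and CDK1 by −0.04 (SE 0.11), each less than the SD of either group.

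In directly irradiated H1299shRAD9 cells WEE1 fell in both kinds of dish, to 70.6% of the control in DBP and 71.0% in DBN, and CDC25C and the second probe of CCNB1 fell in DBN. One called member of the 6 tested in DBP stands against 1.79% of all features called there, and 0.77% called lower. In DBN 3 of 6 were called, against 4.85% of all features, 1.42% called lower. No member rose. Both comparisons share the same CTL arrays. The members were chosen with earlier results of these data known, so these shares describe them and do not test them as a set. Counted over all 11 probes, 8 were below the control in DBP and 10 in DBN, with medians of −0.22 and −0.27 where all 20100 features had medians of 0.03 and −0.01.

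WEE1, the inhibitory kinase, was read by a probe at hg19 chr11:9611073-9611132 on the plus strand. It read 3.002, 2.94, 2.95, 3.08 and 3.06 in H1299shRAD9 CTL (replicates 1 to 5 in order, as in all lists of levels). The irradiated arrays read 2.29, 2.48, 2.48, 2.51 and 2.75 in DBP, and 2.23, 2.33, 2.72, 2.60 and 2.68 in DBN. Every directly irradiated array lay below every control array, which 0.601% of features did in DBP and 0.848% in DBN. The bystanders were at 2.91, 2.93, 2.97, 2.91 and 2.997 in BP and 2.74, 2.78, 3.16, 3.15 and 3.01 in BN. In BN replicates 1 and 2 lay below the range of the controls and replicates 3 and 4 above it, and every bystander array except BN replicate 1 lay above all directly irradiated arrays. The difference from CTL was −0.50 in DBP (SE 0.10, adjusted p = 0.0849, lower in 5 of 5 pairs). In DBN it was −0.49 (SE 0.11, adjusted p = 0.0743, lower in 5 of 5 pairs). With no pairing by replicate number neither was called (adjusted p = 0.259 in DBP and 0.141 in DBN), and the calls were lost without any one of replicates 2, 3, 4 and 5 in DBP (adjusted p = 0.193 to 0.300) and of replicates 1, 2, 3 and 4 in DBN (0.157 to 0.204). On the slides that held both groups the difference was −0.50 and −0.31 in DBP (2 slides) and −0.74 in DBN (1 slide), and with the slide as a block the adjusted p was 0.610 and 0.231.

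CDC25C, the phosphatase that activates CDK1 at mitotic entry and was probed at hg19 chr5:137621240-137621299 on the minus strand, read 4.07, 4.10, 4.54, 4.62 and 4.41 in H1299shRAD9 CTL. In DBN it read 3.55, 3.64, 4.27, 3.97 and 3.99. The groups overlapped through DBN replicate 3, which lay above control replicates 1 and 2, and each DBN array lay below the control of its own number. It fell to 72.6% of the control in DBN (difference −0.46, SE 0.10, adjusted p = 0.0691), a call that was lost with no pairing (adjusted p = 0.338) and without any one of replicates 1, 2, 3 and 4 (0.157 to 0.2002). The DBP arrays read 3.32, 3.79, 4.38, 4.33 and 3.94, lower in 5 of 5 pairs by −0.40 on average (SE 0.11), with an adjusted p of 0.164. That difference was called when arrays were scaled to the upper quartile or quantile normalized, in a fit of all groups together, and in the values processed by the authors.

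CCNB1, cyclin B1, was measured by a probe across an exon junction (hg19 chr5:68471363-68473123, plus strand, 10 spots per array) and by a second, dimmer probe downstream (chr5:68473872-68473931). The junction probe of CCNB1 and that of CDK1 (hg19 chr10:62552004-62553650) are shown because their 60 bases read spliced transcript; they are in lower case throughout, with no base marked.
CCNB1 junction probe: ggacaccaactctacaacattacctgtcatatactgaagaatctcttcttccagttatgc
CDK1 junction probe: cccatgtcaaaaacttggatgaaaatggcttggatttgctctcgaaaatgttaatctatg

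The second CCNB1 probe read 5.56, 6.26, 5.87, 5.85 and 5.52 in H1299shRAD9 CTL, and 4.80, 6.22, 5.08, 4.86 and 4.50 in DBN. Replicate 2 differed from its control by −0.05, while the other 4 pairs differed by −1.03 to −0.76. The second probe fell to 60.7% of the control in DBN (difference −0.72, SE 0.15, adjusted p = 0.0677), and was not called with no pairing (adjusted p = 0.389) or without any one of replicates 1, 3, 4 and 5 (0.114 to 0.198). In DBP it read 4.40, 4.84, 5.31, 6.03 and 4.89, a difference of −0.72 (SE 0.21, adjusted p = 0.178), with replicate 4 above its control. The junction probe of CCNB1 gave smaller differences that were not called, −0.25 in DBP (SE 0.12) and −0.30 in DBN (SE 0.11, adjusted p = 0.231). It read 8.64, 8.58, 8.77, 8.92 and 8.87 in CTL and 8.26, 8.33, 8.80, 8.46 and 8.46 in DBN, overlapping through replicate 3.

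**Figure D1:**
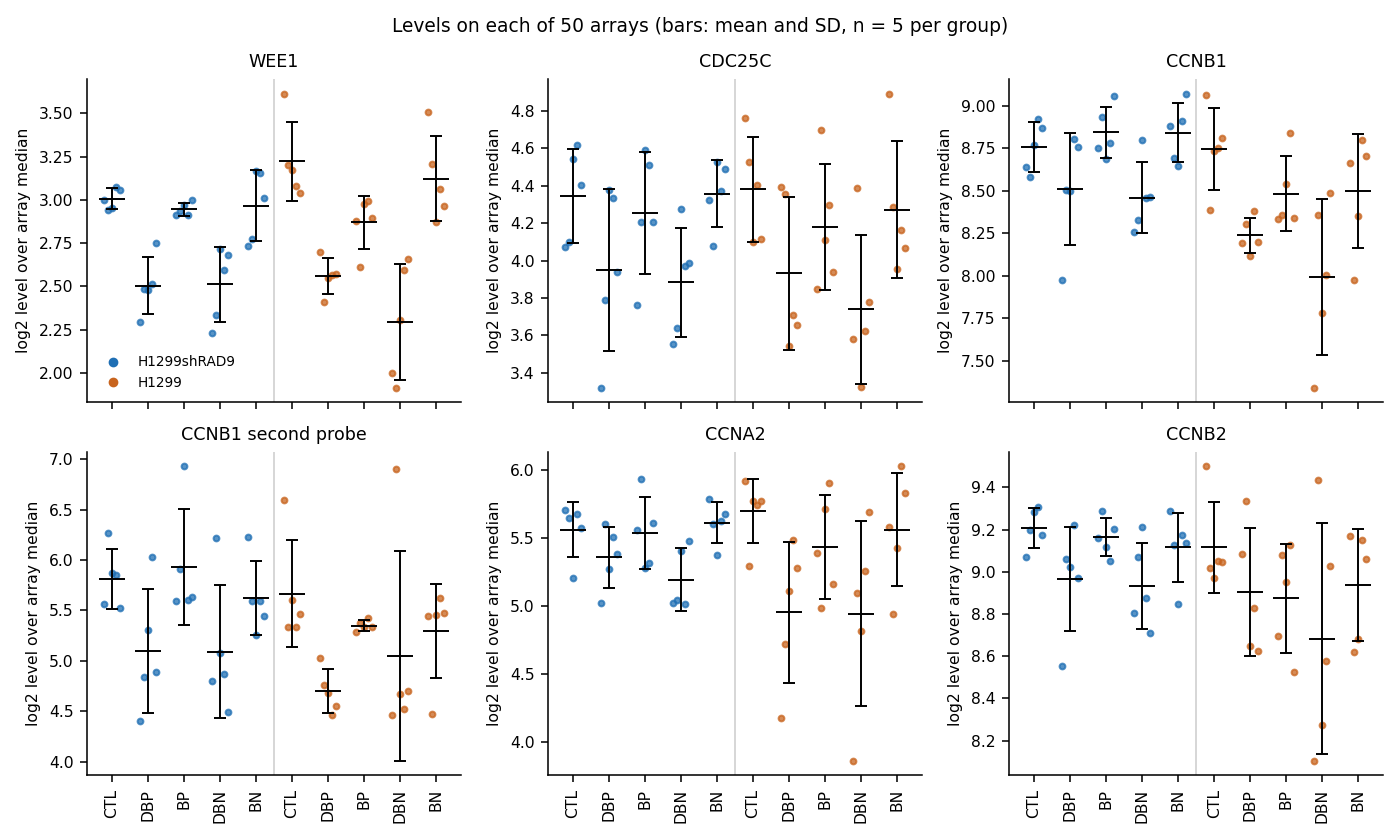
Log2 level over the array median (vertical axis) of WEE1, CDC25C, both CCNB1 probes, CCNA2 and CCNB2 on each of the 50 arrays, by cell line and exposure group (horizontal axis). Points are arrays, and bars give the mean ± SD of 5. In H1299shRAD9, WEE1 read 2.94 to 3.08 in CTL and 2.23 to 2.75 in the directly irradiated groups.

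The remaining cyclins and CDC20 had smaller values in the same cells, none of them called. CCNA2, cyclin A2, differed from CTL by −0.20 in DBP (SE 0.13) and −0.37 in DBN (SE 0.16), and CCNB2, cyclin B2, by −0.24 (SE 0.09) and −0.27 (SE 0.10). CDC20 differed by −0.22 (SE 0.10) in DBP and −0.21 (SE 0.11) in DBN. CDC25B differed by −0.08 and −0.09 (SE 0.10 each). CDK1, the kinase itself, read 7.03 ± 0.11 in CTL, 7.07 ± 0.14 in DBP and 6.97 ± 0.27 in DBN (SD, n = 5 each), differences of 0.04 (SE 0.09) and −0.06 (SE 0.13). CDC25A differed by 0.10 (SE 0.10) and −0.05 (SE 0.10) and PKMYT1 by 0.05 (SE 0.10) and 0.03 (SE 0.11). So the kinase, its second inhibitor and CDC25A stood near the controls. WEE1, CDC25C and the second CCNB1 probe stood below them and were called in DBN. Without a call, CCNB2 was below its control in every pair of both groups, and the CCNB1 junction probe in every DBP pair.

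In H1299 cells the same genes had lower values in directly irradiated cells, but no member was called. In DBP 0 of 6 were called against 0.0573% of features (5 of 6 at an unadjusted p under 0.05, limma), and in DBN 0 of 6 against 0.0164% (4 of 6 under 0.05). Few features of any kind passed in this line, 7 in DBP and 2 in DBN. All 6 tested probes were below the control in both comparisons. Over the 11 probes, 10 were lower in DBP with a median of −0.28 (0.02 over all features), and 11 in DBN with a median of −0.56 (−0.10 over all features, of which 72.2% were lower).

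WEE1 read 3.61, 3.20, 3.17, 3.08 and 3.04 in H1299 CTL. It read 2.70, 2.41, 2.55, 2.57 and 2.57 in DBP, and 1.997, 1.91, 2.30, 2.59 and 2.66 in DBN. All 10 directly irradiated arrays lay below all 5 controls, as did 0.694% of features in DBP and 0.722% in DBN. The difference was −0.66 in DBP (SE 0.15, adjusted p = 0.341) and −0.93 in DBN (SE 0.26, adjusted p = 0.861). Within slides WEE1 was lower in 4 of 4 slides in DBP (−0.91 to −0.47) and 3 of 3 in DBN (−1.70 to −0.49).

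Both CCNB1 probes were also separated from the controls in H1299 DBP. The junction probe read 9.06, 8.39, 8.73, 8.75 and 8.81 in CTL and 8.19, 8.31, 8.12, 8.38 and 8.20 in DBP. The second probe read 6.60, 5.34, 5.60, 5.34 and 5.46 in CTL and 5.03, 4.76, 4.68, 4.46 and 4.55 in DBP. No DBP array of either probe reached the lowest control, and with WEE1 this made 3 of 11 member probes, where 0.694% of features did so. The second probe had the smallest adjusted p of the members (difference −0.97, SE 0.18, adjusted p = 0.181), and the junction probe differed by −0.51 (SE 0.17, adjusted p = 0.748).

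CCNA2 read 5.92, 5.30, 5.77, 5.74 and 5.77 in H1299 CTL, 4.17, 4.72, 5.11, 5.48 and 5.28 in DBP and 3.86, 5.09, 4.81, 5.26 and 5.69 in DBN. The spread among directly irradiated arrays was wide, from replicate 1 at the bottom to replicates 4 and 5 near the controls, with differences of −0.75 (SE 0.22) and −0.76 (SE 0.30). CDC25C read 4.76, 4.53, 4.10, 4.40 and 4.11 in CTL, 4.39, 4.36, 3.54, 3.71 and 3.66 in DBP and 3.58, 4.39, 3.32, 3.62 and 3.78 in DBN. Each of the 10 directly irradiated arrays was below the control of its number, by −0.45 (SE 0.15) and −0.64 (SE 0.25) on average. Members lower in 5 of 5 pairs numbered 6 of 11 in DBP and 5 of 11 in DBN, where 4.8% and 4.46% of all features were, and in H1299shRAD9 they numbered 4 in each, where 5.43% and 5.98% were. No member was higher in 5 of 5 pairs in any of these comparisons.

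**Figure D2:**
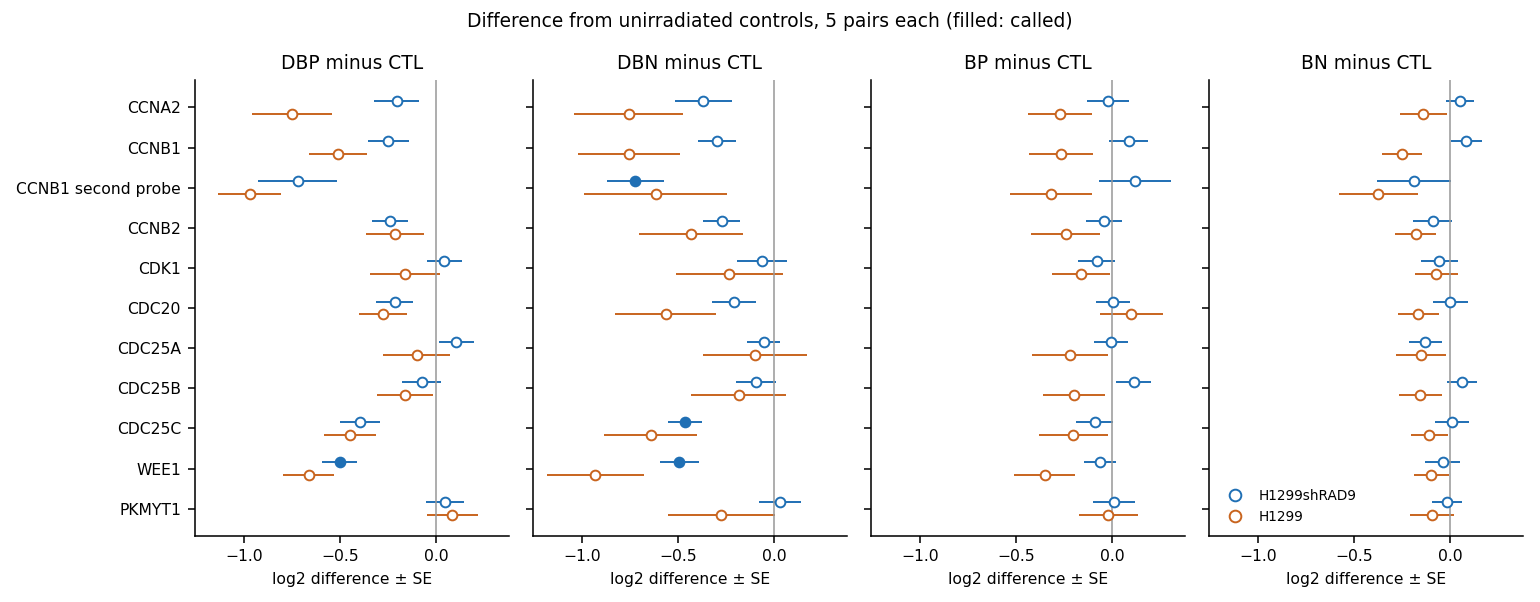
Log2 difference from CTL ± SE (horizontal axis) of the 11 member probes (rows) in DBP, DBN, BP and BN, with both cell lines in each panel, from the fits over 20100 features. Filled points were called: WEE1 in H1299shRAD9 DBP, and WEE1, CDC25C and the second CCNB1 probe in H1299shRAD9 DBN.

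The size of the H1299 DBN differences depended on which arrays were used. In replicate 1 CDK1 read 5.74, CDC20 5.00 and PKMYT1 5.95, where the other 4 arrays read from 6.75, 6.15 and 7.01 upward. In replicate 2 the second CCNB1 probe read 6.90, where the others read 4.46 to 4.70. Without both pairs, WEE1 differed from CTL by −0.58 in place of −0.93, CCNA2 by −0.51 in place of −0.76 and CDC20 by −0.32 in place of −0.56. CDC25C stood at −0.63 with 3 pairs and −0.64 with 5, the junction probe of CCNB1 at −0.67 and −0.75, and the second probe at −0.84 and −0.62. The second probe stood at −0.24 without pair 1 alone and at −1.16 without pair 2 alone, and without pair 1 alone CCNA2 stood at −0.43 and CDC20 at −0.29. CDK1 and PKMYT1, at −0.23 and −0.27 with 5 pairs, stood at 0.03 and 0.01 with 3. The median of all features moved from −0.10 to −0.04. The part of the array quality in these values was not tested beyond leaving the arrays out.

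**Figure D3:**
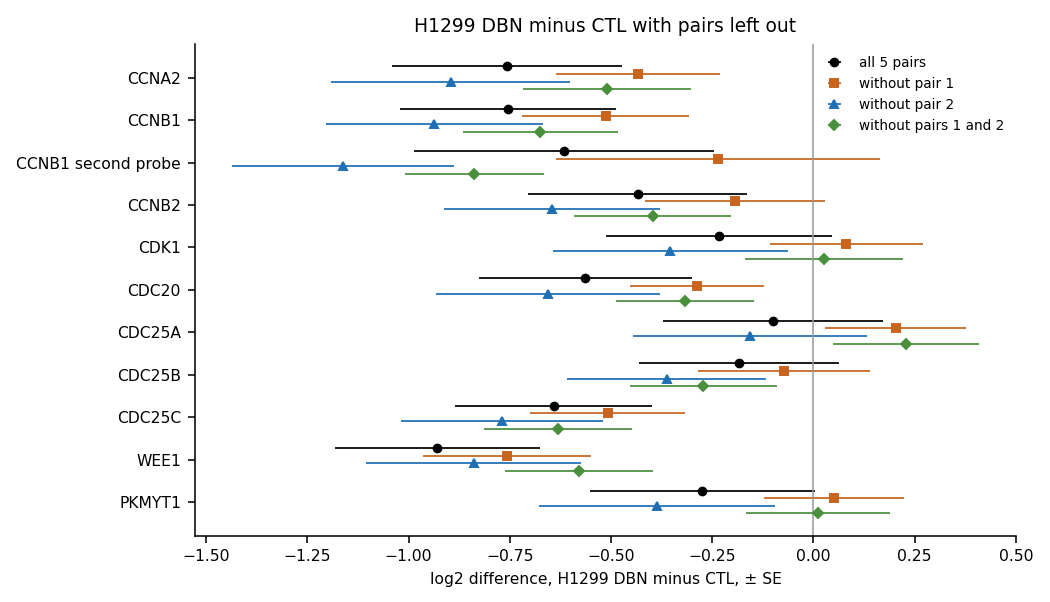
Log2 difference between DBN and CTL in H1299 (horizontal axis) for each of the 11 member probes (rows), with all 5 pairs, without pair 1, without pair 2 and without both. CDK1, CDC25A and PKMYT1 stood at 0.03, 0.23 and 0.01 without both pairs, and WEE1 at −0.58.

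Bystander cells gave no called member in either line. In H1299shRAD9 BP 0 of 6 were called against 2.34% of features, and in BN 0 of 6 against 0.0492%, with none at an unadjusted p under 0.05 (limma). The 11 differences lay between −0.19 and 0.12, with 6 below the control in each group. In H1299 BP and BN 0 of 6 were called where 0.0% of features were in each, again with none under 0.05 unadjusted. There the differences ranged from −0.35 (WEE1) to 0.10 in BP and from −0.37 (second CCNB1 probe) to −0.07 in BN. They were negative for 10 and 11 of the 11 probes, in comparisons where 62.5% and 65.8% of all features were negative. With normexp background correction the median of the 6 tested probes stood at −0.47 in BP in place of −0.27, and at −0.97 in BN in place of −0.15, where the medians of all features were −0.16 and −0.48. WEE1 was the member with all 5 H1299 BP arrays (2.88, 2.61, 2.98, 2.99 and 2.89) below all 5 controls, as for 0.339% of features. Its difference there was −0.35 (SE 0.19, adjusted p = 0.779).

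Set against the bystanders, directly irradiated cells had lower WEE1, CDC25C and CCNB1 values with no call. The replicate number was taken as the dish, which the labels do not state. In H1299 DBN against BN the sign of CDC25C and CCNB1 turned with another background correction. In H1299shRAD9 0 of 6 were called in DBP against BP (0.0983% of features called, 4 of 6 members at an unadjusted p under 0.05) and 0 of 6 in DBN against BN (0.131%, 4 of 6). WEE1 differed by −0.44 (SE 0.10, adjusted p = 0.384) and −0.46 (SE 0.11, adjusted p = 0.614). All 5 directly irradiated arrays lay below all 5 bystander arrays in each, as did 0.356% and 0.341% of features. CDC25C differed by −0.31 (SE 0.10) and −0.47 (SE 0.12), lower in 5 of 5 pairs in each, and CDK1 by 0.12 (SE 0.09) and −0.01 (SE 0.13). In H1299 0 of 6 were called in either comparison, where 0.0% of features were (2 of 6 and 1 of 6 at an unadjusted p under 0.05). WEE1 differed by −0.31 (SE 0.14) in DBP against BP and by −0.83 (SE 0.25) in DBN against BN. In the latter the BN arrays, at 3.51, 3.21, 2.87, 3.06 and 2.96, did not overlap the DBN arrays, which lay below as for 0.361% of features. With normexp background correction WEE1 stood at −0.16 in DBN against BN, and CDC25C, CCNA2 and both CCNB1 probes at 0.22 to 0.60 in place of −0.62 to −0.24, where the median of all features was 0.34. Without H1299 DBN replicates 1 and 2, WEE1 differed from BN by −0.45, CDC25C by −0.49, the CCNB1 junction probe by −0.53 and the second probe by −0.89 (all features 0.0017). The second CCNB1 probe separated H1299 DBP, 4.46 to 5.03, from BP, 5.29 to 5.42, as 0.16% of features did.

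**Figure D4:**
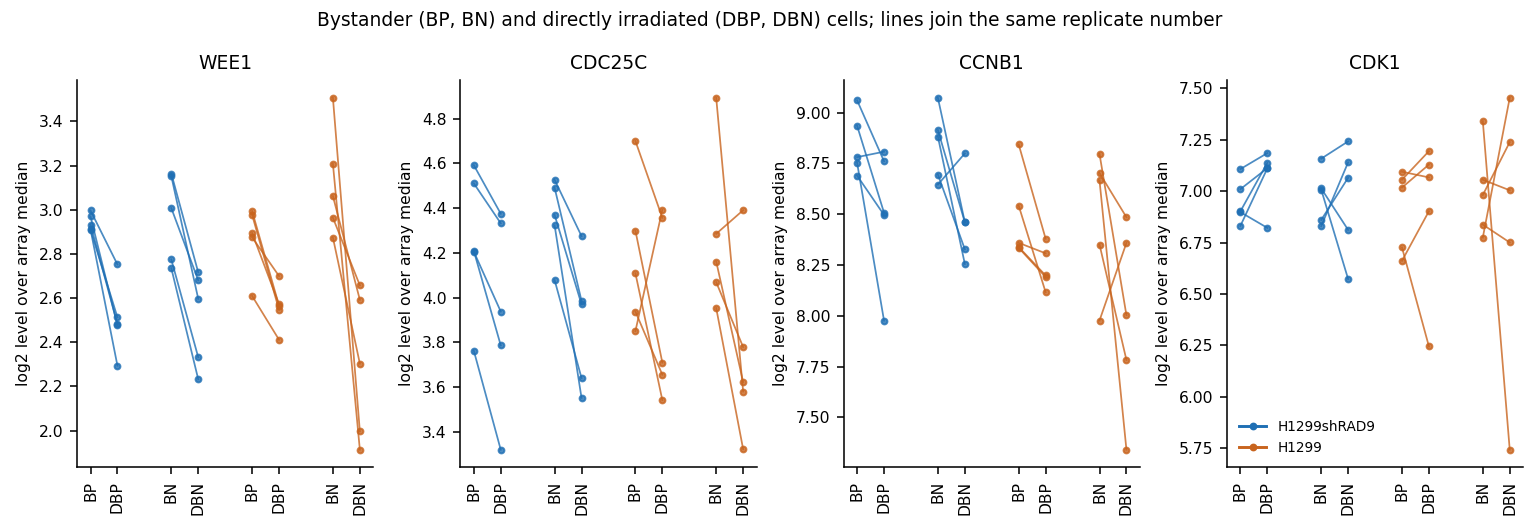
Log2 levels over the array median (vertical axis) of WEE1, CDC25C, CCNB1 and CDK1 in bystander and directly irradiated cells of both lines. Each point is an array, and lines join arrays of the same replicate number (BP with DBP, BN with DBN). WEE1 and CDC25C lines run downward in all 5 H1299shRAD9 pairs of both dishes.

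Whether the lines responded differently was tested directly, as the H1299shRAD9 difference from CTL minus that of H1299. No member was called in any of the 4 groups, and 0.0% of features were in each (limma). The number of members at an unadjusted p under 0.05 was 0 of 6 in the DBP, BP and DBN groups and 1 of 6 in BN. The median over the 11 probes was 0.16 for DBP and 0.18 for DBN, where all features had 0.01 and 0.10. For the bystanders it was 0.21 (BP) and 0.12 (BN), where all features had 0.09 and 0.06. For WEE1 the value was 0.16 (SE 0.16) in DBP and 0.43 (SE 0.27) in DBN. Without H1299 DBN replicates 1 and 2 the DBN value of WEE1 was 0.09 (SE 0.18), and the median over the probes 0.12 (0.04 over all features). For CCNA2 in DBP it was 0.54 (SE 0.27, adjusted p = 0.587). The member with an unadjusted p under 0.05 was the CCNB1 junction probe in BN, at 0.33 (SE 0.14, adjusted p = 0.616). A different response of the 2 lines was thus not shown for any member.

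For CCNA2, the second CCNB1 probe, CDC20, CDC25C and WEE1, the 4 directly irradiated groups had the 4 lowest means of the 10. H1299 DBN had the lowest mean for CCNA2, the CCNB1 junction probe, CCNB2, CDK1, CDC20, CDC25C, WEE1 and PKMYT1. With its mean taken over replicates 3 to 5 it stayed the lowest for the CCNB1 junction probe, CCNB2 and CDC25C and became so for the second CCNB1 probe, but was not the lowest for CCNA2, CDK1, CDC20, WEE1 (2.52) or PKMYT1. Few neighbours in the order were further apart than their SD: 1 of 9 neighbouring pairs for the CCNB1 junction probe, CDC25A and WEE1, and 0 of 9 for the other probes. For WEE1 the order was H1299 CTL (3.22), H1299 BN (3.12), H1299shRAD9 CTL (3.01), H1299shRAD9 BN (2.97), H1299shRAD9 BP (2.94), H1299 BP (2.87), H1299 DBP (2.56), H1299shRAD9 DBN (2.51), H1299shRAD9 DBP (2.50) and H1299 DBN (2.29). The gap wider than the SD fell between H1299 BP and H1299 DBP, that is between all unirradiated and bystander groups and all directly irradiated groups. For CDC25A the order separated the lines, all 5 H1299shRAD9 groups (4.96 to 5.19) above all 5 H1299 groups (4.43 to 4.65). Over replicates 3 to 5 the CDC25A mean of H1299 DBN was 4.92 in place of 4.55, just below the lowest H1299shRAD9 group. The lines lay mostly on different slides, and the part of the slides in this order was not tested. CDK1 had the narrowest order, from 7.07 to 6.84.

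Of a wider list of genes, 4 fell in directly irradiated H1299shRAD9 cells of both dishes. They belong to a list of 19 genes labelled CDK1 activation, 14 of them tested, of which none rose. The label does not mean that each gene of the list activates CDK1. These 4 of 14 stand against 1.79% of all features called in DBP and 0.77% called lower, and against 4.85% and 1.42% in DBN. The list was chosen with earlier results of these data known, so the count describes it and is no test of it. CCNF, a cyclin that serves a ubiquitin ligase, fell by 1.105 on the log2 scale in DBP and in DBN fell by 1.22 (adjusted p = 0.0285 and 0.0358). BORA, the activator of Aurora A, fell by 1.003 in DBP and fell by 1.13 in DBN (adjusted p = 0.0285 and 0.0253). AURKA, the Aurora A kinase, had differences of −0.76 and −0.91 (adjusted p = 0.0461 and 0.0386). PLK1, the kinase activated by Aurora A and a regulator of WEE1 and CDC25C, was named after its values were seen as the remaining called gene, with −0.59 and −0.60 (adjusted p = 0.0944 and 0.0757). In H1299 DBP, BORA fell by 1.20 and AURKA fell by 1.18 (adjusted p = 0.0959 each), 2 of the 7 features called there. BORA, CCNF and AURKA also fell against the bystanders in H1299shRAD9, with differences of −1.08, −1.003 and −0.79 in DBP against BP (adjusted p = 0.0245, 0.0693 and 0.0966) and of −1.26, −1.21 and −0.94 in DBN against BN (adjusted p = 0.0085, 0.0615 and 0.0615). BORA was the list gene called between unirradiated lines, at −0.49 in H1299shRAD9 against H1299 (adjusted p = 0.0290). This is 1 of 14 tested, where 15.5% of all features were called.

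Of 19 measured genes between the checkpoint and CDC25, 7 were tested. CLSPN, the claspin adaptor of the checkpoint kinase CHK1, rose in H1299shRAD9 BP by 0.55 (SE 0.10, adjusted p = 0.0489) and in DBN by 0.69 (SE 0.14, adjusted p = 0.0608). That is 1 of 7 in each, against 2.34% of all features called in BP and 4.85% in DBN. No other gene of this list was called in any of the 17 comparisons. No gene was called by limma in any of these comparisons among 23 of the anaphase-promoting complex and mitotic exit (6 tested), 15 of G2 and M phase transcription (5 tested) or 20 of S phase (9 tested). The share of all features called ran from 0.0% to 15.5% over the comparisons. The absence of calls among so few tested genes therefore says little about these lists. The CDK1 activation list had a median difference of −0.43 in H1299 DBP (12 of 19 lower) and −0.38 in H1299 DBN (18 of 19 lower, and −0.15 with 14 of 19 lower without replicates 1 and 2), and −0.03 and −0.06 in H1299shRAD9 DBP and DBN. The S phase list had medians of 0.02 in DBP of either line, and in H1299 DBN of −0.21, with 20 of 20 lower, where all features had a median of −0.10 and 72.2% were lower. Without replicates 1 and 2 of H1299 DBN the S phase median was −0.04 with 13 of 20 lower, where all features had −0.04 and 58.6% were lower.

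**Figure D5:**
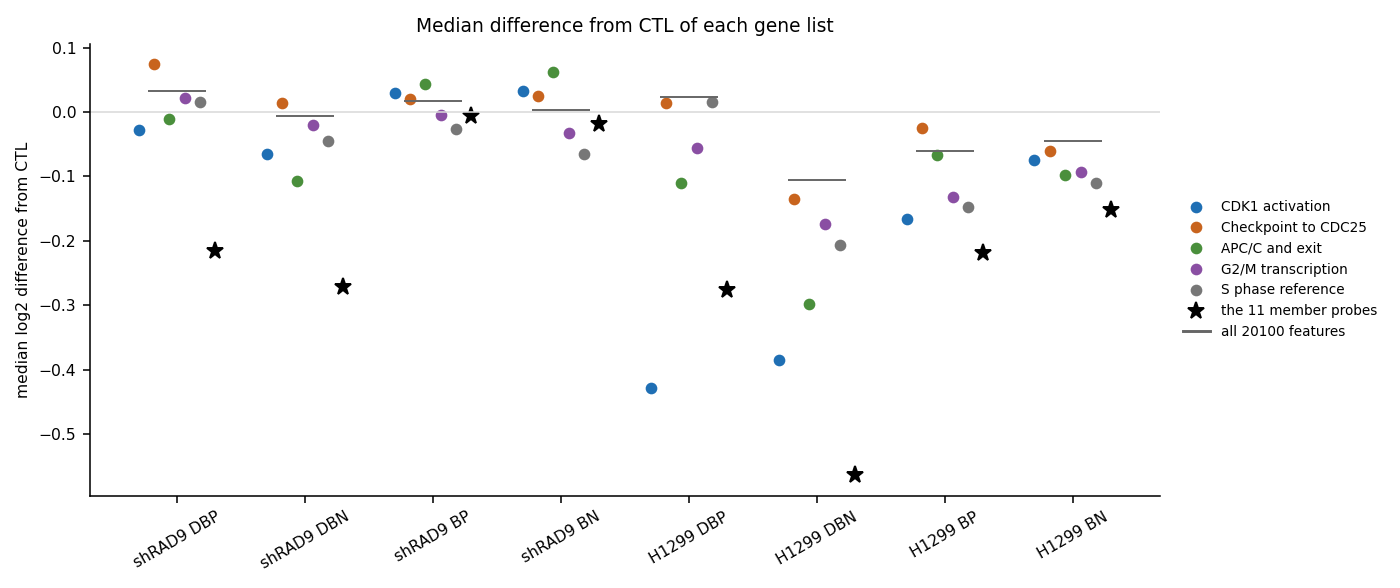
Median log2 difference from CTL (vertical axis) of 5 gene lists (dots), of the 11 member probes (stars) and of all 20100 features (bars), in each of the 8 comparisons with CTL (horizontal axis). The members' median was below that of all features in all 8, from −0.01 in H1299shRAD9 BP to −0.56 in H1299 DBN.

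Genes whose levels moved most like a member were sought by the correlation over the 50 arrays after the mean of each group was removed. The arrays share slides and array quality, and the 15809 genes compared include many that vary together with these. CDK1 was most like TTK and ECT2, both used in mitosis and cell division (r = 0.93 each), and CCDC111 (0.92). CDC20 was most like FOXM1, a transcription factor of G2 genes (0.91), MGLL (0.91) and NOP2 (0.90). CCNB1 was most like CCDC90A, EIF2B1 and MRPS5 (0.91 each), and CDC25C like PSAT1 (0.91), PDCD4 (0.90) and GARS (0.89). WEE1 had the weakest likeness, with KDM3B (0.81), DIEXF (0.80) and CCDC88C (0.78). Without the 5 H1299 DBN arrays these values ranged from 0.73 (CCDC88C) to 0.91 (ECT2 and PSAT1). The likeness is one of arrays within groups. Over the 10 group means r was −0.37 for CDC25C with PSAT1, −0.34 with GARS and −0.22 for CDC20 with MGLL. The other pairs named here had 0.06 (CDC25C with PDCD4) to 0.88 (CDC20 with FOXM1).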

How the data were processed

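RNA from 50 samples was hybridized singly to one-color 4x44K arrays (13 slides). The deposited scanner files hold fluorescence intensities that the authors had background corrected with the scanner software. The authors' deposited value table (log2 intensities, 9502 features, 6 of the 11 member probes, correlation with the same array's intensities of at least 0.999) served as an alternative; its centring stays unknown, with column medians of 8.86 to 9.30. Here log2 intensities without outlier spots were averaged over spots of a probe and the array median was subtracted. Differences were tested with limma 3.58.1 (R 4.3.3), within each line with the replicate number as block, as in the paired comparisons of the study's methods. Deviations of same-numbered arrays correlated at 0.487 to 0.532 on average against CTL in H1299shRAD9, and at 0.414, 0.139, 0.234 and 0.414 in H1299 DBP, BP, DBN and BN (lowest single pair −0.208, in BP). For DBP with BP and DBN with BN they correlated at 0.615 and 0.561 in H1299shRAD9. In H1299 these values were 0.368 and 0.239 (lowest single pair −0.101, in DBN with BN). Interaction fits used line and replicate number together. The fits were tested on simulated data. The number of arrays limits precision.

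The members and lists were chosen with earlier results of these data known. Named genes were all 10 members with every probe, up to 3 list genes with the largest rise and fall per comparison among those called, and the 3 genes most correlated with each of CCNB1, CDK1, CDC20, CDC25C and WEE1. The brightest probe stood for a gene. RefSeq promoter sequences were searched for fixed letters. Alternatives covered scaling, background correction, filters, slide, pairing and left-out arrays. Slides were used as the files name them, and no slide held both CTL groups.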

Additional observations from a re-analysis of the deposited data

Results flagged for a closer look

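In groups of 5, an array was set apart when its gap to the nearest other array exceeded 0.71 of the range of the group. Of 110 groups of values (11 probes in 10 groups) 11 were set apart in this way, where chance would give about 1 in 20, or 5.5. The second CCNB1 probe accounted for 4: H1299 DBN replicate 2 at 6.90 (others 4.46 to 4.70, gap ratio 0.902), H1299 BN replicate 2 at 4.47 (5.44 to 5.62, 0.843), H1299 CTL replicate 1 at 6.60 (5.34 to 5.60, 0.788) and H1299shRAD9 BP replicate 3 at 6.93 (5.59 to 5.91, 0.759). In H1299 CTL replicate 1, CCNB2 at 9.50 (8.97 to 9.05, 0.854) and WEE1 at 3.61 (3.04 to 3.20, 0.713) were also set apart. In H1299shRAD9 DBP replicate 1, CDK1 at 6.82 (7.11 to 7.18, 0.795) and CDC25A at 4.70 (5.24 to 5.40, 0.781) were low. CCNA2 was low in H1299shRAD9 CTL replicate 3 at 5.20 (5.57 to 5.70, 0.745) and in H1299 CTL replicate 2 at 5.30 (5.74 to 5.92, 0.723). PKMYT1 was low in H1299shRAD9 DBN replicate 2 at 7.20 (7.62 to 7.77, 0.732).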

How the results depend on the processing

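Counts of called members in 17 comparisons were recomputed 242 times under the alternatives, of which 219 equalled the main count. In H1299shRAD9 DBN 2 members were called in place of 3 in a fit of all groups together and without replicate 5, and the other 21 values moved further. In H1299shRAD9 DBP the count of 1 became 2 (CDC25C and WEE1) with 75th percentile scaling, quantile normalization, all groups in one fit and the authors' processed values. With the slide as a block in place of the replicate number, and with no replicate block, it became 0 in DBP, and the count of 3 in H1299shRAD9 DBN became 0 as well. Leaving out 1 replicate gave 0 to 1 in DBP, 0 to 2 in DBN and 0 to 1 between the unirradiated lines, where CDC25A was called without replicate 1. Fitting all groups together called 1 member in H1299 DBN (WEE1), 1 in H1299shRAD9 DBP against BP (WEE1), 2 in H1299shRAD9 DBN against BN (CDC25C and WEE1) and 1 in H1299 DBN against BN (WEE1), from 0 each. The replicate block between the unirradiated lines gave 0, as without it. Over 57 alternative values of the 4 called differences none reversed and 26 were no longer past the threshold. The cause was not tested. Leaving out H1299 DBN replicate 2, or replicates 1 and 2, was chosen after seeing the data, and called 0 members. The lines' difference in DBN response then called 2 and 259 features, from 0. With normexp background correction the median of all features stood at −0.16 in H1299 DBP and BP, at −0.48 in BN and at 0.34 in DBN against BN, where the members' median of 0.31 had the opposite sign to the main one. All member probes were well above background on every array.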
